A study of Homo sapiens with 4 samples.

Results

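FBXW7, USP28, SKP2, HUWE1, AURKA, PIM1, ZBTB17 and KIAA1524 are 8 genes whose products act on the MYC protein, controlling its turnover or its activity as a partner. They were taken from the deposited expression table by gene symbol, each symbol matched 1 row, and they make up 8 of its 57815 genes. Expression was measured by RNA-Seq of polyadenylated RNA in 4 libraries of the human colorectal cancer line HCT116, an established cell line. The control group is 2 biological replicates of parental HCT116 cells, in which TBE1 is intact. The 3′ WRE-Mut group is 2 biological replicates of HCT116 cells in which CRISPR/Cas9 editing deleted TBE1 on both alleles. TBE1 is a TCF binding element in the Wnt responsive enhancer downstream of MYC (the 3′ WRE). Both 3′ WRE-Mut libraries came from 1 clone and the controls from the parental population, so deletion of TBE1 and other differences of that clone cannot be told apart.

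MYC is a transcription factor that drives growth and division, and its protein is short-lived. It is removed mainly by the ubiquitin-proteasome system: kinases mark it with phosphate, ubiquitin ligases such as the SCF complex with the substrate receptor FBXW7 recognise the marked protein, and deubiquitinases such as USP28 reverse the step. Other proteins keep MYC stable, among them the kinases AURKA and PIM1 and KIAA1524 (also named CIP2A), an inhibitor of the phosphatase PP2A. In colorectal cancer, Wnt signalling drives MYC transcription, so transcript and protein control act on the same oncogene. RNA-Seq shows the transcripts of these regulators and not the stability of the MYC protein.

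Promoter sequences were matched in RefSeq (build GRCh38.p14) for 6 of the 8 genes (not AURKA and ZBTB17), as 11 windows from 250 bases before to 50 bases after a transcription start. They were searched on both strands for CACGTG (the canonical E-box bound by MYC with MAX), for TTCNNNGAA (the motif of STAT factors, which act upstream of PIM1) and for TTTGAA (an element of cell cycle promoters). No search motif overlaps another in these windows. CACGTG was found in 1 of the 11 windows, that of USP28, starting 174 bases before the start, and in 7.26% of all 35116 windows. TTCNNNGAA and TTTGAA each occurred in 1 window of FBXW7, and in 7.66% and 15.2% of all windows. Such matches describe letters in a window and not occupied sites. The USP28 window (chr11:113875523-113875822, minus strand) is shown with the E-box in capitals, beside the PIM1 window (chr6:37169902-37170201, plus strand), which holds none of the 3 motifs and belongs to the gene with the largest positive difference among the 8.
USP28 promoter: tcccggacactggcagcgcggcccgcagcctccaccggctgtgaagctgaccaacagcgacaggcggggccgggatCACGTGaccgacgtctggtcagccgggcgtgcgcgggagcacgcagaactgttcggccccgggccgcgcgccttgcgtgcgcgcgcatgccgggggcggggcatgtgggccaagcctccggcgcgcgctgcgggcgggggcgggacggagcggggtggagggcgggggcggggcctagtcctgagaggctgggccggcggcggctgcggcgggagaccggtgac
PIM1 promoter: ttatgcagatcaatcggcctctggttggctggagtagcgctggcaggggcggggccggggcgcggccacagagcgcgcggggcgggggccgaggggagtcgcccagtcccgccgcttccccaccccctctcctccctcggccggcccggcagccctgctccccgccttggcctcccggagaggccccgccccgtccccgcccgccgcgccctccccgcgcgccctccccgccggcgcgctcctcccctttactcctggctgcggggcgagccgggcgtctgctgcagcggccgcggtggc

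MYC itself was measured at 111 and 113 FPKM (fragments per kilobase of transcript, scaled to the mapped fragments of each library) in the control libraries and at 48.04 and 34.2 FPKM in the 3′ WRE-Mut libraries. It fell by 1.44 on the log2 scale (SE 0.25, limma adjusted p = 0.0216). The difference was -1.45 without control replicate 1 and -1.43 without control replicate 2. This call did not hold in either of these runs, where far fewer of all tested genes passed. Here and below, group differences are 3′ WRE-Mut minus control on the log2(FPKM + 1) scale, which understates differences of weakly expressed genes, and they were tested with limma across all 11631 protein-coding genes whose mean reached 1 FPKM. The adjusted p is Benjamini-Hochberg over all those genes, with a threshold of 0.05.

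All 8 genes passed the filter and none of them passed the test: 0 of 8 rose and 0 of 8 fell, where 8.33% of all tested genes passed (468 rose and 501 fell). At an unadjusted p under 0.05 there were 2 of the 8, AURKA and PIM1, against 30.1% of all tested genes. The values of the groups did not overlap for 4 of the 8 (AURKA, PIM1, HUWE1 and ZBTB17), against 62.9% of all tested genes. The median difference was 0.04 over the 8 genes (-0.012 to 0.14 with single libraries left out) and -0.02 over all tested genes. In 6 of the 8 the difference was under 0.35 in size. With 2 libraries against 2, an exact two-sided permutation test of a single gene cannot go below p = 0.333, so each test rests on the spread that limma shares across genes. In RNA from whole cultures, less transcript per cell and fewer cells with the transcript cannot be told apart.

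**Figure D1:**
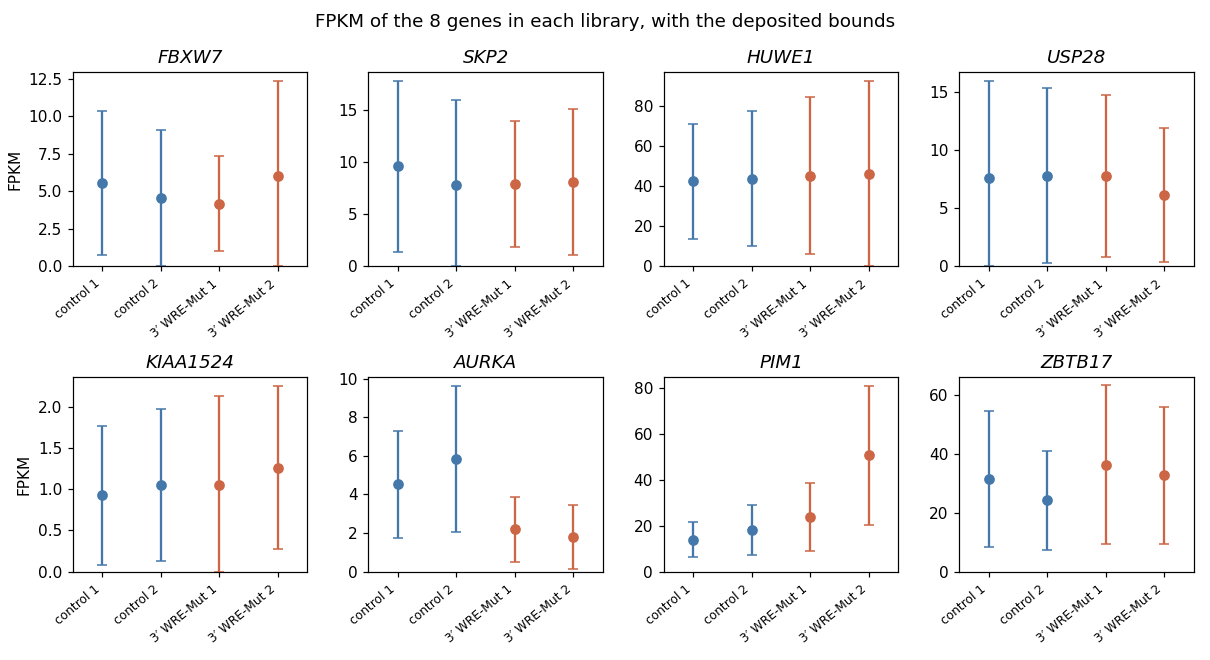
FPKM of each of the 8 genes in the 4 libraries (1 panel per gene, with its own linear axis from 0), with control libraries in blue and 3′ WRE-Mut libraries in red; bars are the lower and upper bounds deposited with each value. AURKA points are at 4.54 and 5.84 FPKM in control and 2.19 and 1.81 FPKM in 3′ WRE-Mut, and PIM1 points range from 13.9 to 50.5 FPKM.

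Of the ubiquitin ligases, FBXW7 (chr4:153241696-153457244, hg19) encodes the F-box protein that recognises phosphorylated MYC and is a tumour suppressor often mutated in colorectal cancer. It was at 5.57 and 4.56 FPKM in control and at 4.18 and 6.02 FPKM in 3′ WRE-Mut. The 3′ WRE-Mut values lay on either side of the control values, and the group means were 5.06 ± 0.71 and 5.10 ± 1.31 FPKM (SD, n = 2 each). The difference was -0.0031, with a 95% interval from -0.66 to 0.65 and an adjusted p of 0.995 by limma. Its sign turned under other scalings of the libraries, and without single libraries it ranged from -0.22 to 0.22.

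SKP2 (chr5:36152091-36196951, hg19) encodes another F-box protein, which ubiquitinates MYC and also acts as its transcriptional coactivator. SKP2 was at 9.62 and 7.82 FPKM in control and at 7.93 and 8.10 FPKM in 3′ WRE-Mut. Both 3′ WRE-Mut values lay between the control values. The difference was -0.10 (95% interval -0.70 to 0.49, limma adjusted p = 0.816), and without control replicate 1 it was 0.03.

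HUWE1 (chrX:53559057-53713697, hg19) encodes a large HECT-type ligase whose substrates include MYC and ZBTB17. It had the highest mean level of the 8 genes in each group, at 42.5 and 43.8 FPKM in control and 45.2 and 46.0 FPKM in 3′ WRE-Mut. These 4 values were close together and the groups did not overlap. In 1 library, 3′ WRE-Mut replicate 2, PIM1 was above HUWE1. The difference was 0.08 (SE 0.22, 95% interval -0.43 to 0.58, limma adjusted p = 0.836), and -0.02 after quantile normalization.
An intron of HUWE1 holds the microRNA genes MIR98 and MIRLET7F2, which carry the same locus in the table and were listed at 0 FPKM in all 4 libraries. Their mature sequences, which belong to the let-7 family and share the seed GAGGUAG (bases 2 to 8, in capitals), are shown because they lie inside a measured gene whose mean level is the highest of the 8 in each group. A table of polyadenylated RNA does not measure mature microRNAs.
hsa-miR-98-5p: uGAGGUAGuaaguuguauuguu
hsa-let-7f-5p: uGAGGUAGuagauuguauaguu

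USP28 (chr11:113668596-113746294, hg19) encodes the deubiquitinase that binds FBXW7 and removes ubiquitin from MYC. It is also the gene whose promoter window holds the E-box shown above. USP28 was at 7.63 and 7.81 FPKM in control and at 7.76 and 6.14 FPKM in 3′ WRE-Mut. The first 3′ WRE-Mut value lay between the controls and the second below them. The difference was -0.14 (95% interval -0.75 to 0.46, limma adjusted p = 0.746), and it rested on 1 library: without 3′ WRE-Mut replicate 2 it was 0.0059. The ratio of ligase to deubiquitinase, FBXW7 over USP28 in FPKM, was 0.729 and 0.583 in control and 0.538 and 0.981 in 3′ WRE-Mut. The 3′ WRE-Mut ratios spanned both control ratios.

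KIAA1524 (chr3:108268711-108308491, hg19) encodes the PP2A inhibitor that protects a stabilising phosphate on MYC. It was the lowest of the 8 genes, at 0.924 and 1.05 FPKM in control and at 1.05 and 1.26 FPKM in 3′ WRE-Mut. Its mean level was at the 0.774 percentile of the tested genes, just above the filter. The difference was 0.12 (95% interval -0.49 to 0.73, limma adjusted p = 0.795).

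AURKA (chr20:54944445-54967393, hg19) encodes a mitotic kinase that also binds MYC family proteins and shields them from FBXW7. Its values were 4.54 and 5.84 FPKM in control and 2.19 and 1.81 FPKM in 3′ WRE-Mut. Both 3′ WRE-Mut values were below both control values, and the 3′ WRE-Mut mean was 0.385 of the control mean. The difference was -1.04 (SE 0.28, 95% interval -1.68 to -0.41), with an unadjusted p of 0.00494 and an adjusted p of 0.0534 by limma, just outside the threshold. The bounds deposited with the values overlapped between the groups: the lowest control bound was 1.76 FPKM and the highest 3′ WRE-Mut bound 3.89 FPKM. AURKA passed when 3′ WRE-Mut replicate 1 was left out (-1.13, adjusted p = 0.00518) or 3′ WRE-Mut replicate 2 (-0.95, adjusted p = 0.0438). With a control library left out it did not pass, at -1.19 (replicate 1) and -0.89 (replicate 2), and far fewer of all tested genes passed. The difference was negative in every alternative run.

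The size of the AURKA difference can be set beside that of MYC. AURKA over MYC in FPKM was 0.0408 and 0.0518 in control and 0.0455 and 0.0529 in 3′ WRE-Mut. These ratios overlapped between the groups, although both transcripts were lower in both 3′ WRE-Mut libraries.

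Among the 11631 tested genes, the 3 nearest to AURKA in pattern over the 4 libraries were KMT2E, HSH2D and PKD2. Nearness was the Euclidean distance of the log2(FPKM + 1) values after the control mean was taken off each gene. KMT2E, a chromatin regulator, was nearest, at a distance of 0.0488 and with 8.45 and 10.4 FPKM in control and 4.32 and 3.88 FPKM in 3′ WRE-Mut. HSH2D followed at 0.0759 and PKD2 at 0.0784. The 3 genes were chosen for closeness in these same values, so their differences lie near that of AURKA by selection. The differences were -1.03 for KMT2E, -1.01 for HSH2D and -1.06 for PKD2. Their limma adjusted p-values lay on both sides of the threshold (0.0504, 0.0488 and 0.0519).

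PIM1 (chr6:37137928-37143204, hg19) encodes a kinase that phosphorylates and stabilises MYC and whose transcription is induced by JAK-STAT signalling. Its values were 13.9 and 18.04 FPKM in control and 23.8 and 50.5 FPKM in 3′ WRE-Mut. Both 3′ WRE-Mut values were above both control values, but they were far apart from each other, by 1.05 on the log2 scale. The difference was 1.08 (SE 0.35, 95% interval 0.29 to 1.88, unadjusted p = 0.0131, limma adjusted p = 0.0830). Its size depended on 1 library: without 3′ WRE-Mut replicate 1 it was 1.61, and without 3′ WRE-Mut replicate 2 it was 0.56. Without control replicate 1 it was 0.91 and without control replicate 2 it was 1.26. Of these runs PIM1 passed only in that without 3′ WRE-Mut replicate 1, where many more of all tested genes passed. PIM1 over MYC was 0.125 and 0.160 in control and 0.495 and 1.48 in 3′ WRE-Mut, so the PIM1 transcript was above that of MYC in 1 library, 3′ WRE-Mut replicate 2.

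ZBTB17 (chr1:16268364-16302627, hg19) encodes MIZ1, the zinc finger protein through which MYC represses genes such as the cell cycle inhibitors CDKN1A and CDKN2B. ZBTB17 was at 31.6 and 24.3 FPKM in control and at 36.3 and 32.8 FPKM in 3′ WRE-Mut. The groups did not overlap, but the lower 3′ WRE-Mut value was nearer to the higher control value than the controls were to each other. The difference was 0.31 (95% interval -0.25 to 0.86, limma adjusted p = 0.424). ZBTB17 over MYC was 0.284 and 0.216 in control and 0.756 and 0.957 in 3′ WRE-Mut, with no overlap. The MYC value fell while that of ZBTB17 did not pass the test, and the ratio itself was not tested.
The targets CDKN1A and CDKN2B did not pass either, and neither had an unadjusted p under 0.05. CDKN1A was at 189 and 115 FPKM in control and 219 and 158 FPKM in 3′ WRE-Mut, and CDKN2B at 11.3 and 6.92 FPKM in control and 9.43 and 5.37 FPKM in 3′ WRE-Mut. Both overlapped between the groups (differences 0.33 and -0.28).

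**Figure D2:**
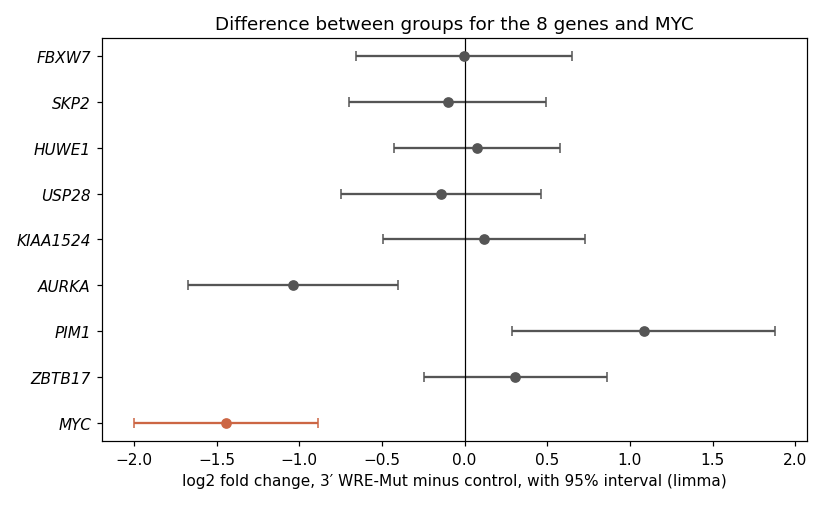
Difference of each of the 8 genes and of MYC between the groups (log2 fold change, 3′ WRE-Mut minus control, on the log2(FPKM + 1) scale), with points for the limma estimate and bars for its 95% interval. MYC (red) passed the test at -1.44, and the intervals of AURKA (-1.68 to -0.41) and PIM1 (0.29 to 1.88) leave out 0 without passing it after adjustment over all genes.

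**Figure D3:**
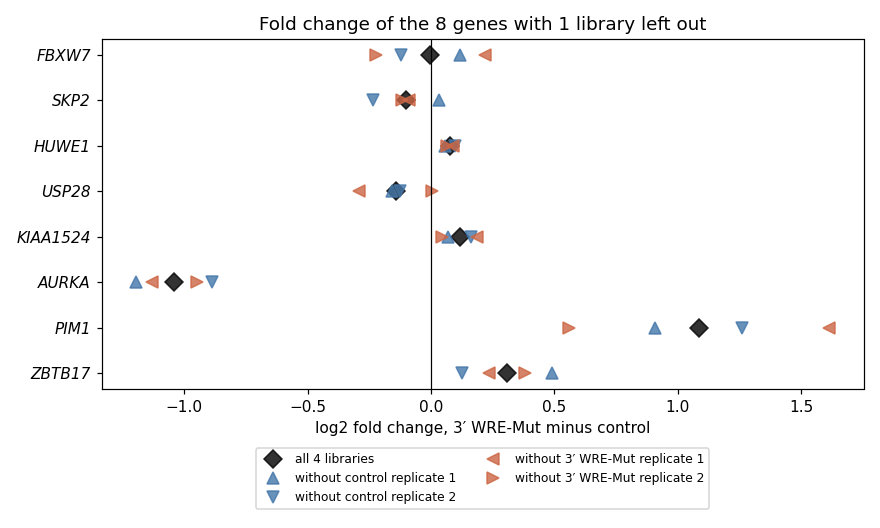
The log2 fold change of each of the 8 genes with all 4 libraries (black diamonds) and with each library left out in turn (triangles, coloured by the group of the library left out). PIM1 ranges from 0.56 to 1.61 and AURKA from -1.19 to -0.89, while FBXW7, SKP2 and USP28 take both signs.

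FPKM is scaled by transcript length, so levels can be ordered between genes. In control the order of the mean FPKM was HUWE1 (43.2), ZBTB17 (27.9), PIM1 (16.0), SKP2 (8.72), USP28 (7.72), AURKA (5.19), FBXW7 (5.06) and KIAA1524 (0.987). AURKA and FBXW7 overlapped in their control values, and the means of SKP2 and USP28 differed by less than the SD of SKP2 (1.27 FPKM). In 3′ WRE-Mut, PIM1 (37.1 ± 18.9 FPKM, SD, n = 2) and ZBTB17 (34.5 ± 2.52 FPKM, SD, n = 2) were not apart by more than their spread. In that group AURKA, at 2.00 ± 0.27 FPKM (SD, n = 2), was below both values of FBXW7.

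The genes around these 8 were described from 7 further lists of 82 genes, of which 80 were tested. GSK3B rose, CUL1 fell and the other 78 did not pass, so 2.5% were called where 8.33% of all tested genes were. The median difference over the 80 genes was 0.01.

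GSK3B, the kinase that places the phosphate FBXW7 reads on MYC, was at 19.1 and 20.6 FPKM in control and at 61.7 and 71.1 FPKM in 3′ WRE-Mut. The groups were far apart, and the difference was 1.69 (SE 0.23, limma adjusted p = 0.00981). The deposited bounds of GSK3B were wide, reaching from 0 to 45.1 FPKM in control replicate 1 and from 0.369 to 142 FPKM in 3′ WRE-Mut replicate 2. The GSK3B difference was 1.64 without control replicate 1 and 1.74 without control replicate 2. The call did not hold in either run, where far fewer of all tested genes passed.

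CUL1, the scaffold of the SCF complexes in which FBXW7 and SKP2 work, was at 9.98 and 8.61 FPKM in control and at 3.76 and 1.35 FPKM in 3′ WRE-Mut. Both 3′ WRE-Mut values were below both control values, and the difference was -1.62 (SE 0.36, limma adjusted p = 0.0380). This call was lost too without control replicate 1 (difference -1.52) or control replicate 2 (-1.71), where far fewer of all tested genes passed. The other SCF subunits SKP1 and RBX1 did not pass (-0.11 and -0.26).

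In the list of MYC ligases and SCF subunits, 0 of 15 rose and 1 fell (median -0.11, and -0.19 to -0.063 with single libraries left out). FBXL14 (-1.26) and RCHY1 (1.05), both ubiquitin ligases, had the largest differences of those not called. In the list of other deubiquitinases of MYC, 0 of 5 tested genes passed with limma (1 at an unadjusted p under 0.05, median 0.08, and 0.039 to 0.26 with single libraries left out), and USP37 had the largest difference, from 1.80 and 1.65 FPKM in control to 3.28 and 6.98 FPKM in 3′ WRE-Mut (1.10, limma adjusted p = 0.0761).

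In the list of MYC phosphorylation and dephosphorylation, 1 of 18 rose and 0 fell (median 0.22, and 0.16 to 0.33 with single libraries left out). The paralogs of PIM1 did not pass, with differences of 0.57 for PIM2 and 0.68 for PIM3. PIM3 was at 71.9 and 64.9 FPKM in control and at 81.6 and 148 FPKM in 3′ WRE-Mut. As for PIM1 and PIM2, both 3′ WRE-Mut values were above both control values and replicate 2 was the higher. The groups did not overlap for 7 of the 18 genes, against 62.9% of all tested genes. AURKB, the paralog of AURKA, overlapped between the groups, at 12.3 and 20.6 FPKM in control and 8.42 and 19.8 FPKM in 3′ WRE-Mut (-0.28). PPP2CA, the catalytic subunit of the phosphatase that KIAA1524 inhibits, did not pass (0.69).

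Of 17 other MYC cofactors 0 passed with limma (median -0.12). At an unadjusted p under 0.05 there were 2 with higher and 3 with lower values in 3′ WRE-Mut, near the share over all tested genes (30.1%). The median ranged from -0.083 to -0.011 with single libraries left out. SMARCB1, a SWI/SNF subunit that binds MYC, was at 41.9 and 39.8 FPKM in control and at 23.5 and 20.7 FPKM in 3′ WRE-Mut (-0.86, limma adjusted p = 0.0534). The replicates of each group lay close together, and its adjusted p equalled that of AURKA. RUVBL1, an ATPase of chromatin complexes that MYC recruits, did not pass either (-0.87).

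Of the JAK-STAT genes that act upstream of PIM1 or in its feedback, 0 of 8 tested genes passed with limma (median 0.21), and before adjustment 1 gene with a higher and 1 with a lower value had p under 0.05, where 30.1% of all tested genes did. The median ranged from 0.077 to 0.23 with single libraries left out, and was lowest without 3′ WRE-Mut replicate 1. The kinase JAK1 was at 14.2 and 18.0 FPKM in control and at 25.3 and 40.8 FPKM in 3′ WRE-Mut (0.97, limma adjusted p = 0.0689). The feedback inhibitors of the pathway had differences of both signs, among them SOCS2 (-0.91) and CISH (0.32).

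AURKA is transcribed mainly late in the cell cycle, and 15 other cell cycle transcripts were compared beside it. Of these 0 passed with limma, and before adjustment 2 genes with a higher and 1 with a lower value had p under 0.05, against 30.1% of all tested genes. For 11 of them the difference was below 0 and for 4 above 0. The median was -0.24, against -0.02 over all tested genes. BORA (0.72) and FZR1 (0.64) were the 2 higher genes with an unadjusted limma p under 0.05. KIF20A, a mitotic kinesin, had the largest difference in size, from 4.20 and 9.87 FPKM in control to 1.67 and 2.64 FPKM in 3′ WRE-Mut (-1.27, limma adjusted p = 0.0692). MKI67, the proliferation marker, overlapped between the groups (-0.14). The list median moved with each library left out: leaving out a control library gave -0.47 (replicate 1) or -0.071 (replicate 2), and leaving out a 3′ WRE-Mut library gave 0.13 (replicate 1) or -0.45 (replicate 2). The part of these transcripts in the AURKA difference was not tested.

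**Figure D4:**
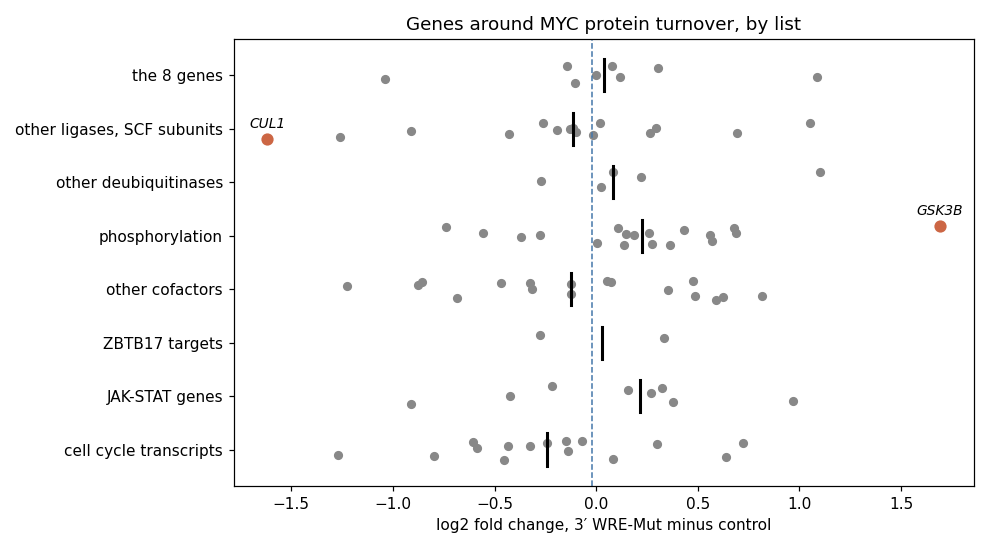
Difference between the groups (log2 fold change, 3′ WRE-Mut minus control) of each tested gene in the 8 genes and in the 7 further lists, with black bars for list medians and a dashed line for the median of all tested genes (-0.02). Red points passed the test: GSK3B at 1.69 and CUL1 at -1.62; the medians lie between -0.24 and 0.22.

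Across the whole table, 26851 to 29356 genes were above 0 FPKM in a library. Depth is unknown because only FPKM values were used, and the number of libraries limits the precision. On the log2 scale the difference between replicates had an SD over the tested genes of 0.36 in control and 0.55 in 3′ WRE-Mut. Pearson's r across these genes, which are not independent replicates, was 0.981 for the control pair, 0.965 for the 3′ WRE-Mut pair and from 0.90 to 0.95 for pairs of libraries from different groups. All 7 epithelial markers were above the filter, and 2 of them, KRT18 (-1.46) and CLDN3 (-1.65), fell, where 8.33% of all tested genes passed. Without control replicate 1 neither passed (differences -1.22 and -1.52), and CLDN3 did not pass without control replicate 2 (-1.78). Far fewer of all tested genes passed in these runs. For 6 of the 7 the difference was below 0 (median -0.56), and CLDN4 was just outside the threshold (-0.93, limma adjusted p = 0.0536). The groups did not overlap for all 7, against 62.9% of all tested genes. CDH1 had the opposite sign, at 42.3 and 24.3 FPKM in control and 49.5 and 73.0 FPKM in 3′ WRE-Mut (0.89, limma adjusted p = 0.103). The summed level of the 7, most of it from keratins, was 3100 and 2860 FPKM in control and 2063 and 1900.3 FPKM in 3′ WRE-Mut. Of 12 markers of other cell types 11 were matched, 4 of these passed the filter and 0 passed the test. At an unadjusted limma p under 0.05 there were 2, CD68 and COL1A1, where 30.1% of all tested genes were. The summed level of the 11 matched markers was 74.8 and 74.0 FPKM in control and 107 and 112 FPKM in 3′ WRE-Mut. Most of that sum came from CD68, a macrophage marker, at 39.6 and 41.6 FPKM in control and 68.5 and 70.2 FPKM in 3′ WRE-Mut (0.76, limma adjusted p = 0.0637). The CD68 locus is shared by 15 deposited genes, CD68 included, and its bounds reached from 0 to 208 FPKM in 3′ WRE-Mut replicate 2. COL1A1, a fibroblast collagen, was at 14.3 and 16.9 FPKM in control and 20.9 and 28.5 FPKM in 3′ WRE-Mut (0.62, limma adjusted p = 0.151). Of the 4 tested markers 3 had differences above 0. DES went the other way, at 18.5 and 13.4 FPKM in control and 14.4 and 10.6 FPKM in 3′ WRE-Mut (-0.33). COL3A1 and PDGFRB were at most 0.098 and 0.31 FPKM in any library. The pan-leukocyte marker PTPRC was at most 0.061 FPKM in any library. The part of either marker list in the AURKA and PIM1 differences was not tested. Of the 8 genes, 6 share their deposited locus with small RNAs, pseudogenes or long non-coding RNAs, and AURKA and PIM1 are alone at theirs.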

How the data were processed

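Single reads were trimmed and filtered by the authors with the FASTX-Toolkit and aligned with TopHat2 2.0.9 to the hg19 build. From the alignments the authors made FPKM values per gene and library with Cufflinks (version 2.2.1 in the submitters' processing notes) and the Gencode annotation. The lower and upper FPKM bounds were also deposited by the authors, and their confidence level is not given in the sources used here. The authors' Cuffdiff comparison (fold changes and p-values) was not used.

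Values of log2(FPKM + 1) were compared between the groups with limma 3.58.1 in R 4.3.3, with a variance trend, for genes of class protein-coding in Gencode v44lift37 (matched for 55535 of 57815 genes) whose mean reached 1 FPKM. Simulated data with 200 changed genes were used to test the fit. The simulation gave both groups the same spread, so it did not cover the unequal replicate spread of these groups. Python 3.11.15 and matplotlib 3.10.9 drew the figures. Named by rule were the 8 genes, MYC, the genes of each list past the threshold (at most 4) and the 3 genes nearest in pattern to the 1 of the 8 with the largest moderated t. Other genes were named after their values were seen. The 8 genes and all lists were chosen with earlier results of these data known. The sources used here do not give the strand of the reads, so reads of overlapping genes cannot be separated. Alternatives were pseudocounts (0.1 and 0.5), filters, scalings, variance priors and thresholds, all gene classes, a replicate block and leaving out each library, after which the lone library is assumed to vary like the other group.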

Additional observations from a re-analysis of the deposited data

How the results depend on the processing

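The count of the 8 genes past the threshold (0) became 1 with no variance trend (AURKA, limma adjusted p = 0.0492), where 812 of all tested genes passed. It became 2 (AURKA and PIM1) at adjusted p under 0.1, where 19.8% of all tested genes passed. With single libraries left out it was higher in the runs where more of all tested genes passed. The count in the 7 further lists (2) became 1 with a pseudocount of 0.1, 0 with no filter on low values and 0 over all gene classes, and ranged from 0 to 24 with single libraries left out. The count over all tested genes (969) became 513, 1 and 28 under those 3 settings and ranged from 76 to 4350 with single libraries left out. With no filter or over all gene classes, MYC was not called (adjusted p = 0.19 and 0.149). AURKA and KIAA1524 have no value at a mean of at least 5 FPKM.

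The FBXW7 difference was 0.0069 with median-ratio scaling and 0.10 with quantile normalization, and HUWE1 was -0.021 with quantile normalization. With single libraries left out, FBXW7 ranged from -0.22 to 0.22, USP28 from -0.29 to 0.0059 and SKP2 from -0.24 to 0.032. The differences of AURKA (-1.33 to -0.88), PIM1 (0.56 to 1.61), ZBTB17 (0.12 to 0.49) and KIAA1524 (0.05 to 0.34) kept their sign in all alternatives that gave a value. The cause of these shifts was not tested.

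Replicate numbers share only a label (correlation of same-numbered deviations 0.111, from 2 pairs). With a replicate block, 2 of the 8 genes passed, AURKA (adjusted p = 0.00498) and PIM1 (adjusted p = 0.00176), 15 genes passed in the further lists and 2862 over all tested genes. Depth is unknown, so counting error could not be given.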
